A study of Mus musculus with 2 samples.

Results

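The 9 genes described here encode transcription factors that build and run macrophages and dendritic cells: Spi1, Cebpa, Cebpb, Klf4, Irf8, Id2, Maf, Nr1h3 and Runx3. They were chosen by name, as every non-control probe whose gene name on both arrays was one of the 9. That gave 16 of the 56605 distinct probes of the array design and 9 of the 24892 genes that could be named; 4 of the genes had 1 probe each and 5 had several. Cells had been sorted with a BD FACSAria II from Peyer's patches (lymphoid follicles in the wall of the small intestine) of S100A4-GFP transgenic C57BL/6 mice, in which green fluorescent protein reports S100A4, a calcium-binding protein. One group was the S100A4-negative cells and the other the S100A4-positive cells, and both carried the transgene and had gone through the same enzymatic release with dispase II, collagenase D and DNase I. Total RNA of each group was labelled with Cy3 and hybridised to 1 array. The number of mice, any pooling of animals and the promoter fragment of the transgene are not given in the sources used here. The question asked of the data was how the level of each factor's RNA differed between the S100A4-positive and the S100A4-negative sort.

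PU.1, the product of Spi1, opens the enhancers of most myeloid genes, and it works with the C/EBP factors to commit progenitors to the granulocyte and monocyte fates. IRF8 and ID2 then favour dendritic cells, KLF4 favours monocytes, and c-Maf and the liver X receptor alpha, the product of Nr1h3, shape tissue macrophages, which in the gut take up antigen and dying cells. In a Peyer's patch these cells sit mainly beneath the epithelium that covers the follicles, among far more numerous B and T lymphocytes, some of which use several of the same factors.

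Each value is the scanner software's processed signal of 1 probe on 1 array, in arbitrary units, and the log2 level is its log2 minus the 75th percentile of that array. A difference is the S100A4-positive log2 level minus the S100A4-negative one, and the value after ± is the error that the scanner software attaches to the 2 spots. With 1 array per group there was no replicate check, no spread between samples and no p-value. Differences are therefore described by size, with 2-fold as the mark, and levels of different probes are not set against each other. In a bulk sort, fewer cells of a type and less RNA per cell cannot be told apart.

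Probes of 4 of the factors are shown first, so that each value below can be tied to the stretch of transcript it was read from. The chromosome positions are those the array files give, in mouse build mm9, and which exon or untranslated region each probe lies in was not analysed here. The Spi1 probe is shown whole. Its 60 bases are spread over 13788 bases of chromosome 2, at chr2:90939665-90953452 on the plus strand, so it crosses at least 1 exon junction.

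Spi1 probe: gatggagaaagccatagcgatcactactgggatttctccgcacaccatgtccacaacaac

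For Nr1h3, Irf8 and Maf, each with several probes, the last 30 bases of each probe are given 5′ to 3′. Capitals mark AATAAA or ATTAAA, the hexamers that commonly precede a poly(A) tail; 10.8% of the 56605 probes hold one in these bases. The Nr1h3 probes lie at chr2:91024250-91024309 and chr2:91024435-91024494 on the minus strand, only 125 bases apart. The Irf8 probes lie at chr8:123280324-123280383 and chr8:123267009-123267068 on the plus strand, 13255 bases apart, and the array files tie them to different transcripts. The Maf probes lie at chr8:118227736-118227795, chr8:118206902-118206961 and chr8:118207273-118207332 on the minus strand, the first 20403 bases or more from the other two.

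Nr1h3 probe 1: acccaaccaAATAAActagccaggagagcc
Nr1h3 probe 2: acatggcgaaggctcactgactgcttccca
Irf8 probe 1: atgcaaacagaatccttggagtgtgtgata
Irf8 probe 2: tgggtcagaaaaaagaaATTAAATAAAaag
Maf probe 1: actgtattgaaaaccaaagtATTAAAaggg
Maf probe 2: ttcctgtaactagcattgttccaggcaatt
Maf probe 3: ttatgattacagtattgagctccacccccc

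The 250 bases before the transcription start, from RefSeq's GRCm38.p6 table, covered 7 of the 9 genes in 10 windows; Spi1 and Maf had no entry in that table. Printed are 1 window of the gene with the largest difference (Nr1h3) and 1 of a gene that stayed below 2-fold at its brightest probe (Irf8). Each of these genes has a second window that is not printed. Capitals mark GC boxes (GGGCGG on either strand) and TATA boxes (TATAAA on either strand). The Nr1h3 window is chr2:91195117-91195366 on the minus strand, and the Irf8 window is chr8:120736108-120736357 on the plus strand.

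Nr1h3 promoter: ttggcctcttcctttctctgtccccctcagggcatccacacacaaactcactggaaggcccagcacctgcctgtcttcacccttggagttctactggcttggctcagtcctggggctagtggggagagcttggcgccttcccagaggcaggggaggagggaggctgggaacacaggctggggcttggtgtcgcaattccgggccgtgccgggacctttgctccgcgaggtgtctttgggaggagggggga
Irf8 promoter: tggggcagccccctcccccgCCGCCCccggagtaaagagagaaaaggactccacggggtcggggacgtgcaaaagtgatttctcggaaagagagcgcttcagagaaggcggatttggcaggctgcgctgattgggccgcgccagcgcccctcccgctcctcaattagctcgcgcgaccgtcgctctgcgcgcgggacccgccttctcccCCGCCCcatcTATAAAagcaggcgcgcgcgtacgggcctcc

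The printed Irf8 window had 67.2% G and C and a ratio of observed to predicted CpG of 1.03. The printed Nr1h3 window was also rich in G and C, at 63.2%, but its CpG ratio was 0.28. The second Irf8 window had 54% and 0.44, with no GC box and no TATAAA, and the second Nr1h3 window 63.6% and 0.35. Over all 32851 windows of that length the medians were 52.4% and 0.37. A GC box was found in 5 of the 10 windows, 1 each for Cebpb, Klf4, Runx3, Irf8 and Id2, against 32.7% of all windows. TATAAA was found in those of Cebpa and Irf8, starting 30 and 31 bases before the start respectively, against 12.4% of all windows. The RUNX core TGTGGT, on either strand, was found only in 1 of the Runx3 windows, at 2 places, against 14.0% of all windows. None of the 10 windows held the PU.1 core GAGGAA, the C/EBP letters TTGCNNAA, the interferon response letters (2 copies of GAAA with any 2 bases between) or the liver X receptor repeat (2 copies of AGGTCA with any 4 bases between), which were in 23.3%, 9.56%, 2.98% and 0.0152% of all windows. These counts say only which letters lie in these windows.

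Before the factors, the sort itself was checked. S100a4 had a signal of 1057 in S100A4-negative and 119341 in S100A4-positive cells, a difference of 7.45 ± 0.20 or 175-fold. The arrays were similar in quality: of 59305 non-control spots, 53.3% on the S100A4-negative and 52.3% on the S100A4-positive array were well above background, none was saturated, and the median signal of a spot was 6.80 and 5.35 times its background. The 75th percentiles were 446 and 287. The 238 spots of the E1A spike-in control were 3.50-fold brighter on the S100A4-positive array, so scaling on them lowers every difference by 2.44, and any difference between 0 and 2.44 then changes sign.

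Of the 9 factor genes, 7 were higher by 2-fold or more in S100A4-positive cells and none was lower by as much; the median difference was 1.88. The background for reading these counts is the 15278 named genes with a signal well above background on 1 or both arrays: 21.4% of them were higher by 2-fold or more, 17.0% were lower by 2-fold or more, and their median was 0.02. Scaled on the spike-in instead, 2 of the 9 passed 2-fold upward and 2 downward and the median was -0.56. On that scale 619 of all named genes (4.05%) were higher and 12608 (82.5%) lower. Each list count below is to be read beside these shares: 21.4% and 17.0% as reported, 4.05% and 82.5% on the spike-in scale. Without any scaling 6 of the 9 were higher and 1 was lower, beside 12.9% and 35.0% of all named genes. Nr1h3 and Id2 stayed at least 2-fold higher under all 10 alternative settings tried, and Maf stayed below 0 under all 10.

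**Figure D1:**
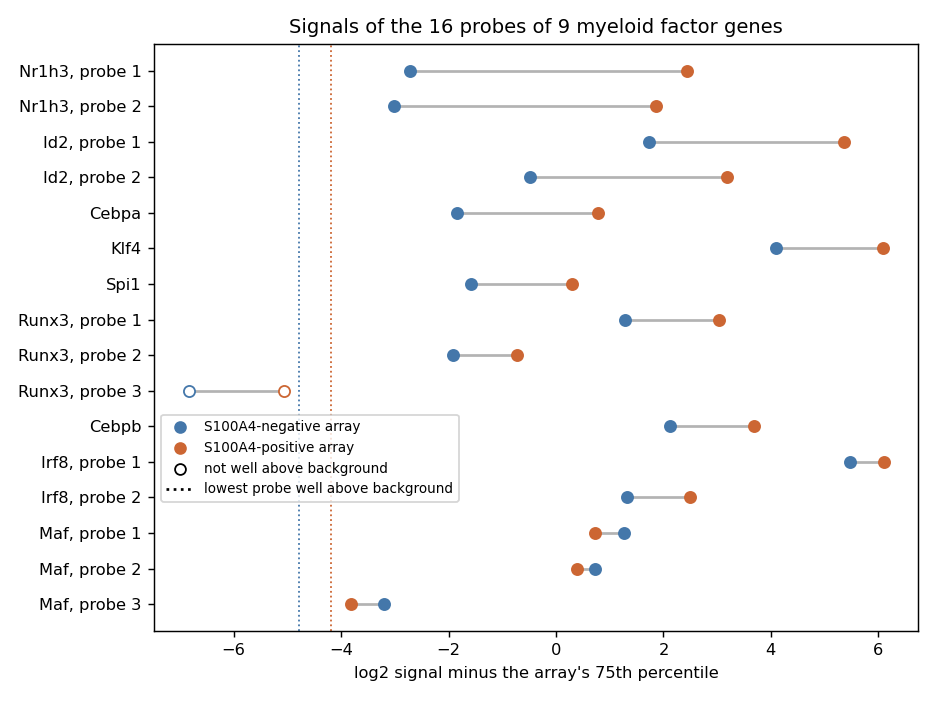
Log2 signal of each of the 16 probes minus the 75th percentile of its array, on the horizontal axis, for the S100A4-negative (blue) and S100A4-positive (orange) array, 1 array each; open circles mark a signal not well above background, and dotted lines the lowest probe well above background on each array. The positive array is to the right for Nr1h3, Id2, Cebpa, Klf4, Spi1, Runx3, Cebpb and Irf8 and to the left for all 3 Maf probes, and the longest line is that of Nr1h3 probe 1, from -2.73 to 2.44.

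Spi1 stands at the head of the myeloid programme. Its single probe had a signal of 148 in S100A4-negative cells and 353 in S100A4-positive cells, log2 levels of -1.59 and 0.30. The S100A4-positive array was the higher by 1.88 ± 0.21, or 3.69-fold, though on the spike-in scale the difference was -0.56. Of the 12970 genes measured on both arrays, 8.16% had a larger difference. Its signal was well above background in both sorts.

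Of the 12 measured relatives and partners of PU.1, 3 passed 2-fold upward and 4 downward, beside 21.4% and 17.0% of all named genes. On the spike-in scale the counts were 1 and 9, beside 4.05% and 82.5% of all named genes. The median as reported was -0.81. Spic, which directs iron-handling red pulp macrophages, was seen only on the S100A4-positive array, with log2 levels of -5.23 (not well above background) and 2.74. Where a gene was above background on 1 array only, its fold is a lower bound, taken against the dimmest probe well above background on the other array or the probe's own value, whichever is higher; for Spic it was at least 185-fold. The repressor genes Etv3 and Etv6 were higher by 3.10 ± 0.20 and 2.02 ± 0.20, the second of these below 0 on the spike-in scale. Lower were Spib, the PU.1 relative of B and plasmacytoid cells, at -1.50 ± 0.20, the lymphocyte factor gene Ets1 at -1.66 ± 0.20, Fli1 at -1.05 ± 0.20 and the repressor gene Gfi1 at -2.09 ± 0.20. Runx1, a partner of PU.1, was at -0.76 ± 0.20 at its brightest probe but at up to 2.48 at another.

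Among 20 genes known to be bound or driven by PU.1, 11 passed 2-fold upward and 2 downward, with a median of 2.08; on the spike-in scale the counts were 8 and 9 and the median -0.36. The receptor gene for colony-stimulating factor 1, Csf1r, differed by 6.36 ± 0.20 at its brightest probe and by 1.54 at its other probe. Il1b, encoding interleukin 1 beta, differed by 5.73 ± 0.20, and the endotoxin co-receptor gene Cd14 by 5.64 ± 0.21. Seen only on the S100A4-positive array were Fcgr1, encoding an IgG receptor (at least 41.5-fold higher), and Msr1, encoding a scavenger receptor (at least 17.5-fold higher). At the other end were the B cell kinase gene Btk at -2.79 ± 0.20, the B cell receptor gene Cd72 at -1.89 ± 0.20 and the oxidase subunit gene Ncf4 at -0.37 ± 0.20. The set thus held myeloid genes with larger differences than Spi1 itself and B cell genes with opposite ones.

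Cebpa encodes the C/EBP factor needed to enter the granulocyte and monocyte lineages. It had a signal of 125 in S100A4-negative and 493 in S100A4-positive cells, log2 levels of -1.83 and 0.78. That is 2.61 ± 0.21 or 6.12-fold, and 5.19% of genes had a larger difference. On the spike-in scale it was 0.17. Its probe lies at chr7:35906517-35906576 on the plus strand.

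Cebpb, the C/EBP factor of inflammatory activation, had a signal of 1950 and 3683, log2 levels of 2.13 and 3.68, at a probe at chr2:167515828-167515887 on the plus strand. The S100A4-positive array was higher by 1.55 ± 0.20 or 2.93-fold, but was at -0.89 on the spike-in scale. The Cebpa difference exceeded the Cebpb one by more than their scanner errors.

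Of 8 other measured genes of the C/EBP family, 3 were at least 2-fold higher and 1 lower (2 and 5 on the spike-in scale), with a median of -0.06. Cebpd, induced early in inflammation, went from a log2 level of -1.43 to 2.93, a difference of 4.36 ± 0.21, and the stress-induced gene Atf3 differed by 4.53 ± 0.20. Nfil3, needed for innate lymphoid and type 1 dendritic cells, differed by 2.65 ± 0.20. The granulocyte factor gene Cebpe was seen only on the S100A4-negative array and was at least 7.41-fold lower in S100A4-positive cells. Cebpg, Cebpz, Ddit3 and Atf4 stayed between -0.53 and 0.12, all of which were below -2 on the spike-in scale.

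Of 12 measured C/EBP target genes, 7 passed 2-fold upward and 2 downward, with a median of 1.28 that became -0.63 on the spike-in scale, where the counts were 4 and 6. Of the 12, 3 were seen only on the S100A4-positive array. Over the 9 measured on both arrays the counts were 4 and 2 and the median 0.74, below 2-fold. Chil3, a chitinase-like macrophage protein gene, differed by 6.56 ± 0.21, lysozyme gene Lyz2 by 6.31 ± 0.20 and the interleukin 6 gene Il6 by 5.62 ± 0.27. Arginase gene Arg1 was at least 82.2-fold higher and the myeloperoxidase gene Mpo at least 5.75-fold higher. The neutrophil calgranulin genes S100a9 and S100a8 were lower, at -1.93 ± 0.21 and -1.48 ± 0.25.

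Klf4, needed for Ly6C-high monocytes but also used by goblet cells and other epithelia, had a signal of 7651 in S100A4-negative and 19425 in S100A4-positive cells. The log2 levels were 4.10 and 6.08, and the difference was 1.98 ± 0.20 or 3.94-fold at a probe at chr4:55540833-55540892 on the minus strand. It was -0.46 on the spike-in scale. The S100A4-negative signal was 127 times its background, so this factor was well measured in both sorts.

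Of 10 other measured KLF genes, 3 passed 2-fold upward and 2 downward, counts near the shares of all named genes. All 10 were at least 2-fold lower on the spike-in scale, as were 82.5% of all named genes there. Klf6 differed by 1.39 ± 0.20, Klf10 by 1.20 ± 0.20 and Klf9 by 1.17 ± 0.21. Klf2, the quiescence factor of naive lymphocytes, was at -1.58 ± 0.20, and the epithelial crypt factor gene Klf5 was seen only on the S100A4-negative array and was at least 6.24-fold lower.

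Of 14 genes that depend on KLF4, in monocytes and macrophages or in the intestinal epithelium, 8 passed 2-fold upward and 2 downward, with a median of 3.15 (7, 6 and 0.71 on the spike-in scale). The higher ones included Chil3, Cd14, Arg1, and the monocyte chemokine receptor gene Ccr2 at 5.25 ± 0.25. Both lower genes were epithelial and seen only on the S100A4-negative array: the goblet cell mucin gene Muc2, at least 69.8-fold lower at its brightest probe with no bound from its other one, and the brush border phosphatase gene Alpi, at least 7.39-fold lower (named after its value was seen, to complete the pair).

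**Figure D2:**
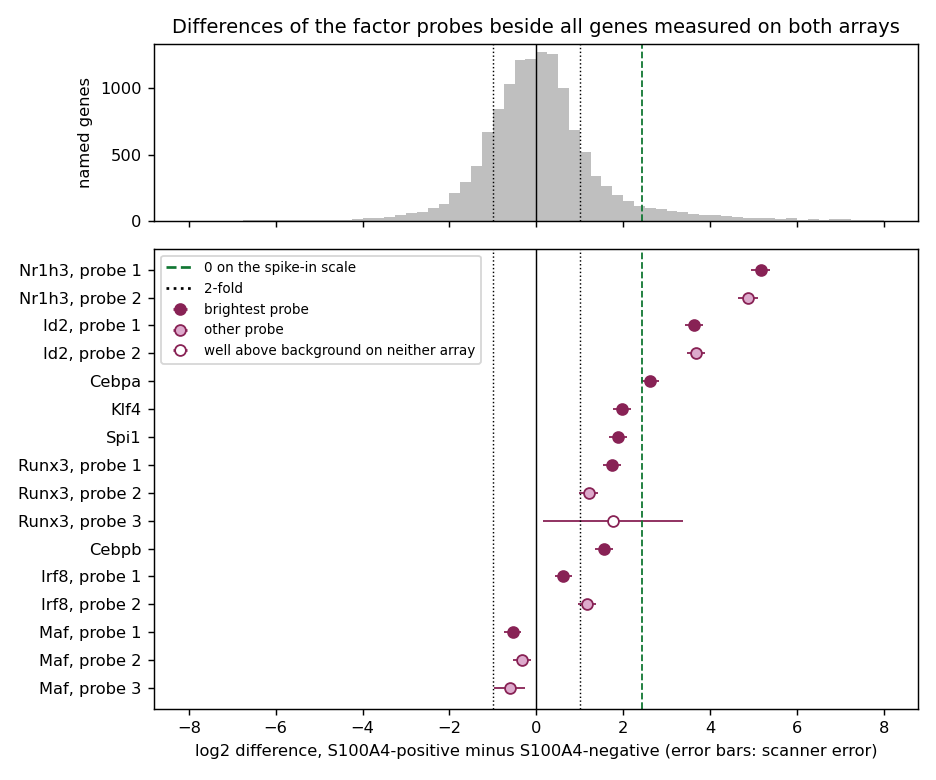
Log2 difference, S100A4-positive minus S100A4-negative, of the 16 probes (lower panel, bars are the scanner error) under a histogram of the 12970 named genes measured on both arrays (upper panel, number of genes per bin). Dotted lines mark 2-fold and the dashed line marks where a difference becomes 0 on the spike-in scale, at 2.44; only the Nr1h3, Id2 and Cebpa probes lie to its right.

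Irf8 encodes the factor of type 1 dendritic cells and monocytes, and B cells of germinal centres use it as well. Its brightest probe had a signal of 19836 in S100A4-negative and 19691 in S100A4-positive cells, log2 levels of 5.48 and 6.10. The difference was 0.62 ± 0.20 or 1.54-fold, below the 2-fold mark, and it was -1.82 on the spike-in scale and -0.01 without scaling. The other probe had signals of 1114 and 1609 and a difference of 1.16 ± 0.20 or 2.24-fold. The probes differed from each other by 0.54 with an error of 0.29, and Irf8 passed 2-fold at its second probe only.

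Other members of the family ranged from -1.96 to 5.96. Of 11 measured, 2 were at least 2-fold higher and 3 lower, beside 21.4% and 17.0% of all named genes. On the spike-in scale the counts were 1 and 9, beside 4.05% and 82.5%. Batf3, the partner of IRF8 in type 1 dendritic cells, had log2 levels of -1.77 and 4.19 and a difference of 5.96 ± 0.21 or 62.1-fold. Irf7, the interferon amplifier of plasmacytoid dendritic cells, differed by 1.51 ± 0.20. Irf4, used by plasma cells and by type 2 dendritic cells, was at -1.96 ± 0.20, and Irf2 at -1.87 ± 0.21. Irf5, a factor of inflammatory macrophages, was at 0.18 ± 0.20 at its brightest probe and 2.15 at its other one. Batf3 thus had the largest difference of these genes, in the opposite direction to Irf4.

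Of 14 measured genes bound by IRF8 or marking type 1 dendritic cells, 9 passed 2-fold upward and 2 downward, with a median of 1.86 that was -0.18 on the spike-in scale, where the counts were 5 and 6. Clec9a, a receptor for dead cells on type 1 dendritic cells, was seen only on the S100A4-positive array and was at least 211-fold higher. Ifi205 differed by 6.77 ± 0.27 and the cystatin gene Cst3 by 3.59 ± 0.20. Bcl6, a repressor of the germinal centre, was lower at its brightest probe, at -1.38 ± 0.20, but was at 0.005 at its other one. The integrin gene Itgae, at -0.27 ± 0.20, and Ly75, at -0.07 ± 0.21, stayed within 2-fold. Xcr1, a defining receptor of type 1 dendritic cells, was well above background on neither array.

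Id2 encodes an inhibitor without a DNA-binding region that ties up E proteins and is needed for dendritic cells and innate lymphoid cells. Its brightest probe, at chr12:25778904-25778963 on the minus strand, had a signal of 1487 in S100A4-negative and 11816 in S100A4-positive cells. The log2 levels of 1.74 and 5.36 differ by 3.62 ± 0.20, or 12.3-fold, and 2.78% of genes had a larger difference. A second probe, at chr12:25780080-25780139, had signals of 318 and 2612 and a difference of 3.67 ± 0.20. The probes differed by only 0.05, with an error of 0.29. Id2 stayed above 2-fold on the spike-in scale, at 1.18.

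Of 5 measured relatives and partners, Id1 was higher at 1.09 ± 0.21 and the E protein gene Tcf3, needed in B cells, lower at -2.40 ± 0.20. All 5 were at least 2-fold lower on the spike-in scale, as were 82.5% of all named genes there. Id3 was at -0.10 ± 0.20 and Tcf12 at -0.00 ± 0.20. Tcf4, the E protein of plasmacytoid dendritic cells, was at 0.03 ± 0.20 at its brightest probe and at up to 3.40 among its 5 probes.

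Among 14 genes of lineages that need ID2, 7 passed 2-fold upward and 1 downward, with a median of 1.81; on the spike-in scale these were 4, 7 and -0.63. Rora, a factor of innate lymphoid and Th17 cells, differed by 4.46 ± 0.20 and Zbtb16, a factor of innate-like lymphocytes, by 4.28 ± 0.26. Tbx21, of type 1 lymphocytes, was at -1.49 ± 0.21, Tcf7 at -0.34 ± 0.20, and Itgae again at -0.27 ± 0.20. Rora, and Zbtb16 at its brightest probe, thus had larger differences than Id2 itself. The other Zbtb16 probe gave 1.61.

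Maf encodes c-Maf, a factor of interleukin 10-producing macrophages and also of follicular helper and Th17 cells. Its signal was 1074 in S100A4-negative and 473 in S100A4-positive cells, log2 levels of 1.27 and 0.72. The difference of -0.55 ± 0.20, or 1.46-fold lower, was the only one of the 9 below 0, and 70.7% of genes had a larger one. Both of its other probes, with signals of 733 and 375 and of 48.4 and 20.4, gave -0.33 ± 0.20 and -0.61 ± 0.35. All 3 Maf probes were lower on the S100A4-positive array and none by 2-fold, and the differences between probes, 0.07 to 0.28, were within their errors of 0.29 to 0.41. The brightest probe was at -2.99 on the spike-in scale and at -1.18 without scaling.

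Other MAF genes did not follow it. Of 8 measured genes of the MAF and BACH family, 3 were at least 2-fold higher and 1 lower, 2 and 5 on the spike-in scale, with a median of 0.73. The small MAF gene Maff differed by 3.45 ± 0.20 and the haem-sensing repressor gene Bach1 by 1.88 ± 0.20. Bach2, which keeps B and T cells from terminal differentiation, was at -4.20 ± 0.21, with -2.39 at its other probe. Mafa, Mafg and Mafk stayed between 0.03 and 0.91, all below 0 on the spike-in scale.

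Of 13 measured genes driven by c-Maf, 8 passed 2-fold upward and 2 downward, with a median of 2.51 (6, 5 and 0.07 on the spike-in scale). The complement genes C1qa, C1qb and C1qc, made by resident macrophages, differed by 7.13 ± 0.22, 7.06 ± 0.22 and 7.12 ± 0.21. The transglutaminase gene F13a1 was at least 49.0-fold higher at its brightest probe, though its other probe gave 1.48, and the mannose receptor gene Mrc1 was at least 17.6-fold higher. Seen only on the S100A4-negative array were the T cell cytokine genes Il21, at least 20.8-fold lower in S100A4-positive cells, and Il4, at least 6.36-fold lower. Ccr6, a receptor of B and Th17 cells, was at -0.97 ± 0.20 and the costimulator gene Icos at -0.03 ± 0.20. The C1q genes, F13a1 and Mrc1 were thus higher in the sort in which Maf itself was not.

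Nr1h3 encodes the liver X receptor alpha, which senses oxidised cholesterol in macrophages that have taken up cells or lipid. Its first probe had a signal of 67.4 in S100A4-negative and 1561 in S100A4-positive cells, log2 levels of -2.73 and 2.44. The difference of 5.17 ± 0.22, or 35.9-fold, was the largest of the 9, and 143 of 12970 genes, or 1.103%, had a larger one. The second probe went from 55.1 to 1042, a difference of 4.87 ± 0.22 or 29.3-fold. On the S100A4-negative array the probe signals were only 2.31 and 2.10 times their background, so the folds rest on a dim denominator. The normexp background correction gave 4.17 for the first probe, and the spike-in scale gave 2.73.

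Its close relative Nr1h2, the widely expressed liver X receptor beta, was at 0.12 ± 0.20, and the co-repressor gene Ncor1 was at -0.02 ± 0.20. Of 10 measured partners and co-repressors, 4 were at least 2-fold higher and none lower, 1 and 7 on the spike-in scale, with a median of 0.38. Rxra, the partner that Nr1h3 needs to bind DNA, differed by 2.20 ± 0.20 at its brightest probe and 0.98 at its other one. Pparg, another lipid sensor, differed by 2.09 ± 0.25, and the clock repressor genes Nr1d1 and Nr1d2 by 5.59 ± 0.24 and 1.35 ± 0.20. Nr1d1 was the only gene of this list with a larger difference than Nr1h3.

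Of 20 measured genes that liver X receptors drive, 7 were at least 2-fold higher and 2 lower and 11 stayed within 2-fold, with a median of 0.20. On the spike-in scale 1 was higher and 14 lower, beside 4.05% and 82.5% of all named genes. Tgm2, a transglutaminase of macrophages that clear dying cells, differed by 3.62 ± 0.20, the apolipoprotein gene Apoc1 by 3.38 ± 0.25 and the phospholipid transfer protein gene Pltp by 2.96 ± 0.21. Mertk, a receptor for dying cells, was seen only on the S100A4-positive array and was at least 5.87-fold higher. The stearoyl-CoA desaturase gene Scd1 was at -6.48 ± 0.23, the LDL receptor ligase gene Mylip at -2.28 ± 0.20 and the fatty acid synthase gene Fasn at -0.94 ± 0.20. A difference of 35.9-fold in Nr1h3 thus stood beside a list of targets whose median was close to the 0.02 of all genes.

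Runx3 is used by dendritic cells, including Langerhans cells, and by CD8 T cells and innate lymphoid cells. Its brightest probe, at chr4:134732807-134732866 on the plus strand, had a signal of 1091 in S100A4-negative and 2358 in S100A4-positive cells. The log2 levels were 1.29 and 3.04, and the difference was 1.75 ± 0.20 or 3.36-fold, or -0.69 on the spike-in scale. A second probe, at chr4:134731959-134732018, had signals of 118 and 174 and a difference of 1.20 ± 0.21; the 2 differed by 0.54 with an error of 0.29. The remaining probe, at chr4:134711463-134711522, had signals of 3.92 and 8.62, well above background on neither array, and gives no level. It was the 1 probe of the 16 that was not well above background on both arrays.

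Of its 4 measured relatives and partners, 1 was at least 2-fold higher and none lower, beside 21.4% and 17.0% of all named genes. The higher gene was Runx2, which plasmacytoid dendritic cells need to leave the marrow. Runx2 was seen only on the S100A4-positive array and was at least 10.5-fold higher at its brightest probe. Cbfb, the partner of all RUNX proteins, was at -0.64 ± 0.20 and Cbfa2t3 at 0.44 ± 0.20. On the spike-in scale 3 of the 4 were at least 2-fold lower and none higher, beside 82.5% and 4.05% of all named genes.

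Of 16 measured genes tied to RUNX3, 3 passed 2-fold upward and 5 downward, beside 21.4% and 17.0% of all named genes. The median was -0.20. On the spike-in scale the counts were 2 and 13, beside 4.05% and 82.5%. Both genes that RUNX3 drives and a gene that it represses, Il4, are in this list, so its counts mix directions. Cd209a, a lectin of monocyte-derived and type 2 dendritic cells, was at least 224-fold higher. The chemokine receptor gene Cxcr6 differed by 4.19 ± 0.20 and Cd8b1 by 2.59 ± 0.20, while Cd8a was at 0.32 ± 0.20. The lower genes included those of cytotoxic and type 1 cells, Gzmb at -3.35 ± 0.20, Ifng at -1.58 ± 0.21 and Tbx21 at -1.49 ± 0.21. Il4, which RUNX3 represses, was at least 6.36-fold lower, as given above.

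**Figure D3:**
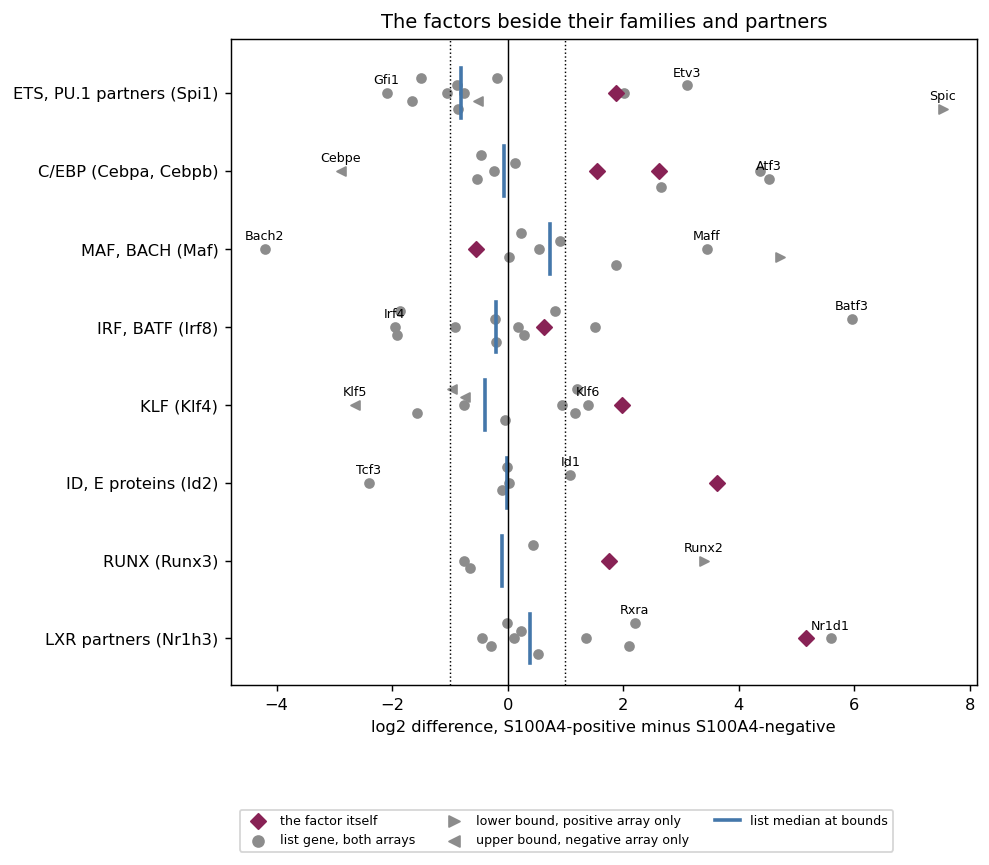
Log2 difference, S100A4-positive minus S100A4-negative, of each factor gene (diamonds) beside the measured genes of its family and partners (grey); triangles are genes above background on 1 array only, placed at their bound, blue bars are list medians and dotted lines mark 2-fold. The medians run from -0.81 to 0.73, and Spic, Batf3, Nr1d1, Atf3 and Cebpd are among the genes further right than the factor of their row; a shift of -2.44 gives the spike-in scale.

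Side by side, the 9 differences ran in the order Nr1h3, Id2, Cebpa, Klf4, Spi1, Runx3, Cebpb, Irf8 and Maf. The gap from Nr1h3 to Id2 was 1.54 with an error of 0.30, that from Id2 to Cebpa 1.01 with an error of 0.29, and that from Cebpa to Klf4 0.63 with an error of 0.29. The next 3 gaps, 0.09, 0.14 and 0.20, were within their scanner error, so Klf4, Spi1, Runx3 and Cebpb have no order among neighbours. Cebpb and Irf8 were 0.93 apart and Irf8 and Maf 1.17, both beyond scanner error. The spread between replicate sorts, which is not measured here, may be larger.

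A wider list of 22 other transcription factor genes of myeloid cells, some of them named above, had 15 past 2-fold upward and 3 downward, with a median of 2.06; on the spike-in scale the counts were 6 and 8 and the median -0.38. Mitf, a factor of lysosomes, osteoclasts and mast cells, had log2 levels of -2.94 and 1.79, a difference of 4.73 ± 0.22 at its brightest probe and 3.41 to 5.45 over its 4 probes. The relative Tfec, found in macrophages, was at least 7.17-fold higher. Zbtb46, which marks classical dendritic cells, was at least 11.9-fold higher, and Bhlhe40 differed by 3.41 ± 0.20. Zeb2 was at 1.58 ± 0.20 at its brightest of 7 probes, which ranged from 1.21 to 4.22, Relb at 1.54 ± 0.20 and Ahr at 1.05 ± 0.20. The immediate early genes Nr4a1 and Egr1 were at 0.02 ± 0.20 and 0.06 ± 0.20.

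**Figure D4:**
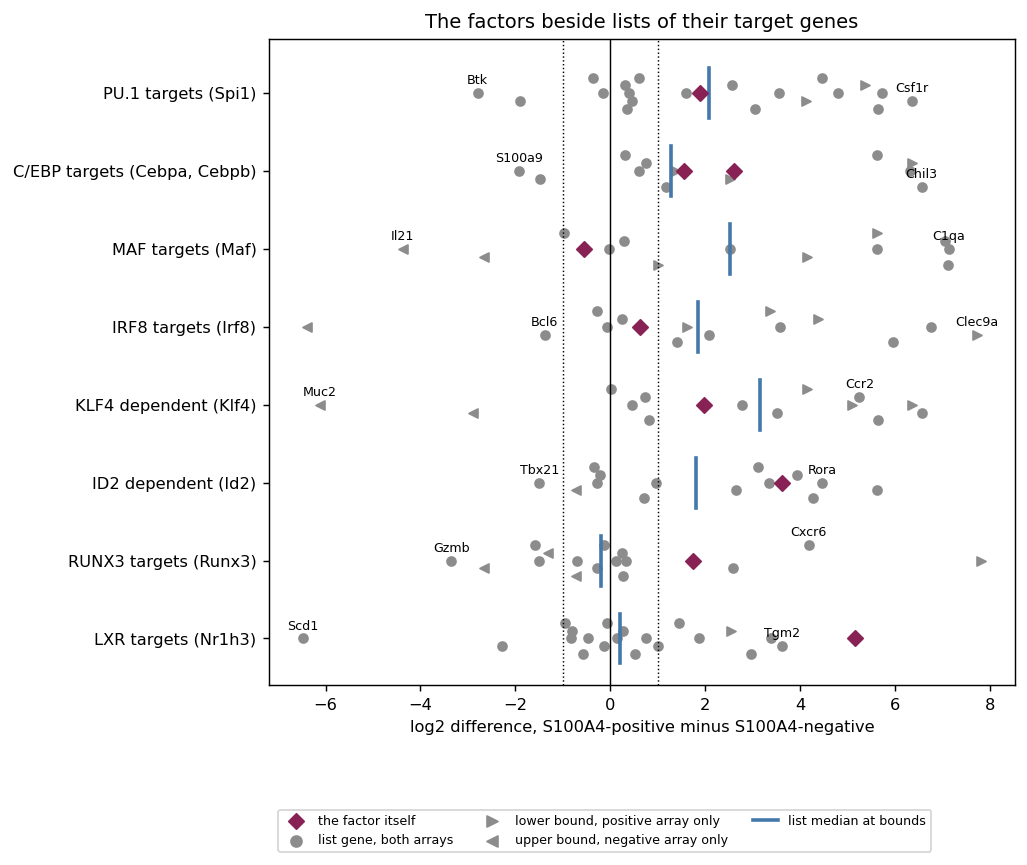
Log2 difference, S100A4-positive minus S100A4-negative, of each factor gene (diamonds) beside the genes of its target list (grey). Listed genes are driven, bound or repressed by the factor, depend on it, or mark cells that need it. Triangles are genes above background on 1 array only, blue bars are list medians and dotted lines mark 2-fold. The list medians run from -0.20 for RUNX3 to 3.15 for KLF4, the Maf diamond lies left of its list's median and the Nr1h3 diamond right of its own; a shift of -2.44 gives the spike-in scale.

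Among 115 genes of the cell type lists measured on both arrays, those closest to each factor in difference were named as a likeness over these 2 arrays only. Nr1h3 was closest to Tnfsf11 (5.17), encoding the RANK ligand, and Clec4a4 (4.90), a dendritic cell lectin gene. Id2 was closest to the macrophage gene Cd68 (3.56) and to Ccr9 (3.84), a receptor of plasmacytoid dendritic cells, and Cebpa to Cd8b1 (2.59) and Ly6c2 (2.78). Spi1 and Klf4 shared both of theirs, Ly6g (1.73) and Thy1 (2.04), while Runx3 was near Ly6g and Il17a (1.54). Cebpb was near Il17a and Flt3 (1.53), Irf8 near Csf3r (0.61) and Xbp1 (0.60), and Maf near Col3a1 (-0.51) and Col1a2 (-0.78). The neighbours of most factors came from lists of different cell types. Closeness in a single difference does not tell which cells carried a factor's RNA.

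Marker genes of several cell types moved between the sorts together with the factors, and their part in the factor differences was not tested. Higher and lower mean by 2-fold or more here. The sums without Ccr7 and Lyz1, the levels of Thy1 and Kit, and the naming of Col1a1 were chosen after their values were seen. Of 17 measured macrophage and monocyte markers 15 passed 2-fold upward and none downward, and their summed level, in multiples of each array's 75th percentile, was 50.6 on the S100A4-negative and 1005 on the S100A4-positive array. Of 12 classical dendritic cell markers 11 were higher (summed level 120 and 220, or 9.22 and 119 without Ccr7, the 1 marker that was not higher), and of 10 plasmacytoid dendritic cell markers 7 were (112 and 402). Well above background on both arrays were 13 of the 17 macrophage, 7 of the 12 classical dendritic and 9 of the 10 plasmacytoid markers; the others, among them Fcgr1, Mrc1, Clec9a and Clec10a, were so on the S100A4-positive array only. On the spike-in scale the higher counts of these 3 lists were 11, 9 and 5, and the lower counts 2, 2 and 4.

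Cells other than macrophages and dendritic cells were marked too. Markers of gamma-delta T cells and innate lymphoid cells were higher in 12 of 14 cases and lower in none (summed level 15.3 and 384.5), among them Il23r, at least 200-fold higher, and Klrb1b at 7.62 ± 0.24. All 13 B cell markers were lower (614 and 29.8), as were all 9 of the germinal centre (71.1 and 13.04) at their brightest probes. With the median over probes 8 of these 9 were lower. On the S100A4-positive array 12 of the 13 B cell markers were still well above background, Pax5 being the exception, as were 7 of the 9 of the germinal centre. Of 14 T cell markers 9 were lower and 2 higher (204 and 166), and of 8 plasma cell markers 5 were lower and 2 higher (186 and 71.8). The neutrophil list, 3 higher and 3 lower of 9 (84.1 and 125), and the mast cell and basophil list, 3 and 3 of 6 (3.36 and 15.0), were mixed.

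Markers of the tissue's non-blood cells differed as well. Of 14 enterocyte markers 12 were lower and 1 higher (51.7 and 7.72), and of 12 goblet and Paneth cell markers 7 were lower and 3 higher (38.9 and 57.7). The goblet and Paneth sum was 38.1 and 3.60 without the lysozyme gene Lyz1, which was higher by 6.20 ± 0.20; 5 of the 12, among them Muc2 and Fcgbp, were seen only on the S100A4-negative array. Of 9 endothelial markers 7 were higher (1.13 and 4.996), but 6 of the 9 were seen only on the S100A4-positive array. Of the 3 endothelial markers measured on both arrays 1 was higher. Of 11 fibroblast and stromal markers 7 were higher and 1 lower (44.6 and 122). These sums include Thy1, which is also in the T cell list and had log2 levels of 4.18 and 6.22. The collagen genes Col1a2 and Col3a1 stayed within 2-fold, at -0.78 ± 0.24 and -0.51 ± 0.27. Of these 11, 1, Col1a1, was seen only on the S100A4-negative array and 2 only on the S100A4-positive array. On the spike-in scale the endothelial counts were 4 and 2 and the fibroblast counts 5 and 5. Irf8, Id2, Runx3, Klf4 and Maf are expressed in lymphoid or epithelial cells too, and these data do not divide the signal of any of the 9 factors between cell types.

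**Figure D5:**
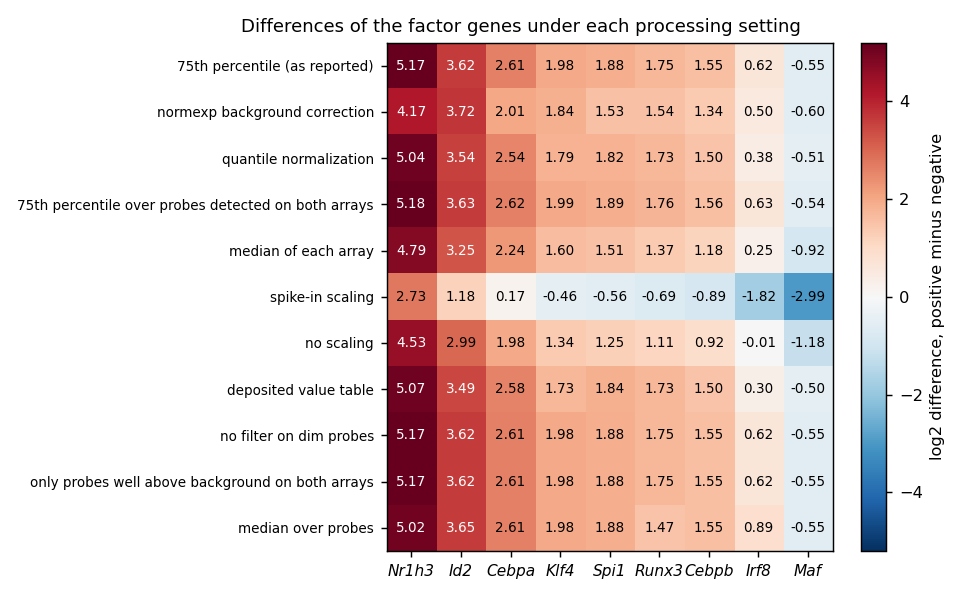
Log2 difference, S100A4-positive minus S100A4-negative, of each of the 9 factor genes (columns) under the reported setting and 10 alternatives (rows), printed in the cells and coloured red above and blue below 0. Nr1h3 and Id2 stay above 1 in every row, and in the spike-in row Klf4, Spi1, Runx3, Cebpb and Irf8 turn below 0, at -0.46, -0.56, -0.69, -0.89 and -1.82, joining Maf at -2.99.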

How the data were processed

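Total RNA of 1 S100A4-negative and 1 S100A4-positive sort was amplified, labelled with Cy3 and read on 2 Agilent arrays of design 74809, 1 per sort, as the labels' protocols and file headers state. The deposited scanner tables hold processed signal intensity per spot, background-subtracted by Agilent Feature Extraction 10.7.1.1, per the file headers; version 9.5.1.1 stands in the submitters' processing notes. The flags for spots well above background and for outliers, another deposited value, were used as given. From each array's log2 intensity the 75th percentile over non-control spots was subtracted (pandas 2.3.3, numpy 2.4.6), outlier spots were left out, spots of a probe averaged, and a gene took its probe with the highest mean signal among those well above background on at least 1 array. Names came from RefSeq by accession (33895 probes), symbol (9464) or synonym (489), and 12757 probes stayed unnamed. Error bars combine the software's error per spot. The normexp correction used limma 3.58.1 with offset 50. The deposited value table (intensity, both medians 19.6, how it was made not given in the sources used here) was an alternative only. On simulated data all 50 of 50 genes planted at a log2 difference of 2 passed 2-fold, and of 13940 unplanted genes 63 passed upward and 79 downward; the simulation carries spot error only, not the spread between sorts. Apart from the members, family genes were all open to naming, target lists gave at most the 3 largest differences each way and 2 genes seen on 1 array, and cell lists the 2 largest and 2. Some list genes are counted but not reported here by name. The members and lists were chosen with earlier results of these data known. Precision is limited by having 1 array per group.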

Additional observations from a re-analysis of the deposited data

How the results depend on the processing

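As reported, 7 of 9 factor genes passed 2-fold upward and none downward, with a median difference of 1.88. The median was 1.54 with normexp background correction, 1.51 when scaled on each array's median, 1.25 without scaling and -0.56 on the spike-in scale. The higher count was 2 on the spike-in scale, and the lower count 2 there and 1 without scaling. Quantile normalization, the 75th percentile over detected probes, the deposited table, the probe filters and the median over probes moved none of the 3 values beyond their error. Of the genes past 2-fold, Spi1 (-0.56), Cebpb (-0.89), Klf4 (-0.46) and Runx3 (-0.69) changed sign on the spike-in scale; Irf8, within 2-fold, did so there (-1.82) and without scaling (-0.01). Of the list medians past 2-fold, those changing sign were, on the spike-in scale, other myeloid factors (-0.38), PU.1 targets (-0.36), C/EBP targets (-0.63), IRF8 targets (-0.18), ID2 lineages (-0.63) and fibroblast markers (-0.40). Medians nearer 0 changed sign too: on the spike-in scale the MAF and BACH family (-1.71), LXR partners (-2.06), LXR targets (-2.24), neutrophil (-1.70) and mast cell markers (-2.39), and under other settings LXR targets (-0.18 on array medians) and mast cell markers (-0.31 with quantile normalization), among others. That setting shifts every difference by the same 2.44 by its construction; which scale is nearer to RNA per cell was not tested. Of all genes past 2-fold 55.7% were higher, against 37.0% with the array medians, 26.9% without scaling and 4.68% on the spike-in scale; the all-gene medians there were -0.35, -0.62 and -2.42. With normexp the counts of all genes were 2277 higher and 1752 lower, against 3266 and 2598. Nr1h3 on the S100A4-negative array lies near background, which limits its fold. No paired analysis was possible because each group has 1 array and the replicate numbers only name the samples.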

Other observations

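Spi1 and Nr1h3 lie on the same stretch of mouse chromosome 2, their probes 70797 bases apart in build mm9, and the genes around them were read for their position, a choice made after their values were seen and outside the naming rule. Between them lie 2 protein-coding genes by the order of RefSeq's GRCm38.p6 annotation: Mybpc3, a cardiac myosin-binding protein gene, at 3.74 ± 0.21 with log2 levels of -1.87 and 1.87, and Madd at -0.12 ± 0.20. Beyond Nr1h3, the lysosomal phosphatase gene Acp2 was at 3.18 ± 0.23, the DNA repair gene Ddb2 at -1.89 ± 0.21 and Pacsin3 at 2.00 ± 0.27. On the far side of Spi1, Slc39a13, Psmc3 and Rapsn were at 0.39 ± 0.21, 0.28 ± 0.20 and 0.63 ± 0.24. On the spike-in scale Mybpc3, Acp2 and Nr1h3 alone of these genes stayed above 0.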
